A study of Homo sapiens with 4 samples.

Results

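The genes described here are ATF4 and 9 genes that belong to the cell's answer to amino acid shortage and related stress: DDIT3, TRIB3, ASNS, CHAC1, SESN2, PSAT1, PHGDH, SLC7A11 and DDIT4. The 10 were taken by symbol from the 63568 gene identifiers of the count tables, and all 10 were found and passed the filter on low counts. The libraries came from HGC-27, an established human gastric carcinoma cell line, and the experiment asked which cellular pathways change when USP47, a deubiquitinating enzyme, is lowered. One group of 2 libraries came from cells infected with lentivirus for Control shRNA (a scrambled sequence) and the other group of 2 from cells infected with lentivirus for USP47 shRNA, so both groups carry a virus and a hairpin. The submitters describe the 2 libraries of a group as biological duplicates. The p-values set a change against the spread between such libraries, which was estimated for each gene with information shared among genes. The study made HGC-27 knockdown lines with more than one USP47 hairpin and describes the sequenced cells as carrying shRNAs against USP47, but which hairpin each library carries is not stated, so the spread within that group can include a difference between hairpins.

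ATF4 is a bZIP transcription factor at the centre of the integrated stress response. Kinases that sense amino acid shortage (GCN2), unfolded protein in the endoplasmic reticulum (PERK), heme shortage or double-stranded RNA phosphorylate the translation factor eIF2. General translation then slows while translation of ATF4 mRNA rises, which is why the ATF4 mRNA level does not report ATF4 protein. ATF4 drives genes for amino acid synthesis and uptake, for brakes on the growth kinase mTORC1 and, under lasting stress, for cell death.

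Total counts on genes ranged from 15649899 to 20140273 per library, and USP47 itself was at 49.3% and 29.5% of the mean control level in USP47 shRNA libraries 1 and 2. Across genes, log2 levels correlated at 0.993 within the control pair and at 0.987 within the USP47 shRNA pair. HGC-27 is labelled a carcinoma line, yet the defining epithelial markers were close to absent: EPCAM had between 3 and 12 counts per library, CDH1 between 8 and 28, KRT8 between 10 and 19, and KRT18 and KRT19 at most 1. At these few counts EPCAM was called lower with USP47 shRNA (log2 fold change -1.84, edgeR adjusted p = 0.0416), and CDH1 and KRT8 were not called. Of the mesenchymal markers VIM was at 353 to 502 CPM and SPARC at 98.4 to 114 CPM, neither called, while CDH2 had 3 to 10 counts. FN1 fell from 73.1 and 73.8 CPM to 26.2 and 32.0 CPM (edgeR, adjusted p = 0.000602), and the part of this change in the results below was not tested. The 5 leukocyte markers summed to between 5.37 and 8.34 CPM per library, and the 3 of 4 endothelial markers found summed to between 0.767 and 1.33 CPM. In bulk RNA, a lower share of expressing cells and less RNA per cell cannot be told apart.

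Levels per library are given below as CPM, which are counts scaled to library size after TMM normalization. Calls of change used edgeR (quasi-likelihood), with p-values adjusted by Benjamini-Hochberg across the 21932 genes tested and a threshold of 0.05. By this rule 16.1% of all tested genes were called, 6.52% higher and 9.56% lower with USP47 shRNA. Of the 10 genes, SESN2 was called higher, SLC7A11, ASNS, DDIT4 and PHGDH were called lower, and ATF4, PSAT1, TRIB3, DDIT3 and CHAC1 were not called. The median log2 fold change (USP47 shRNA against Control shRNA) was -0.38 over the 10 genes and -0.01 over all genes tested. The groups did not overlap for 9 of the 10, 7 lower and 2 higher, where 61.0% of all genes tested had groups that did not overlap, 31.7% lower and 29.3% higher. The number of the 10 that was called depended on single libraries. It was lower without either control library and higher without either USP47 shRNA library, and the number called over all genes tested moved in the same way. In such fits the lone library of a group is assumed to vary like the other group. Without a USP47 shRNA library that spread comes from the control pair, the more alike pair across genes. A call in those fits therefore says little.

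**Figure D1:**
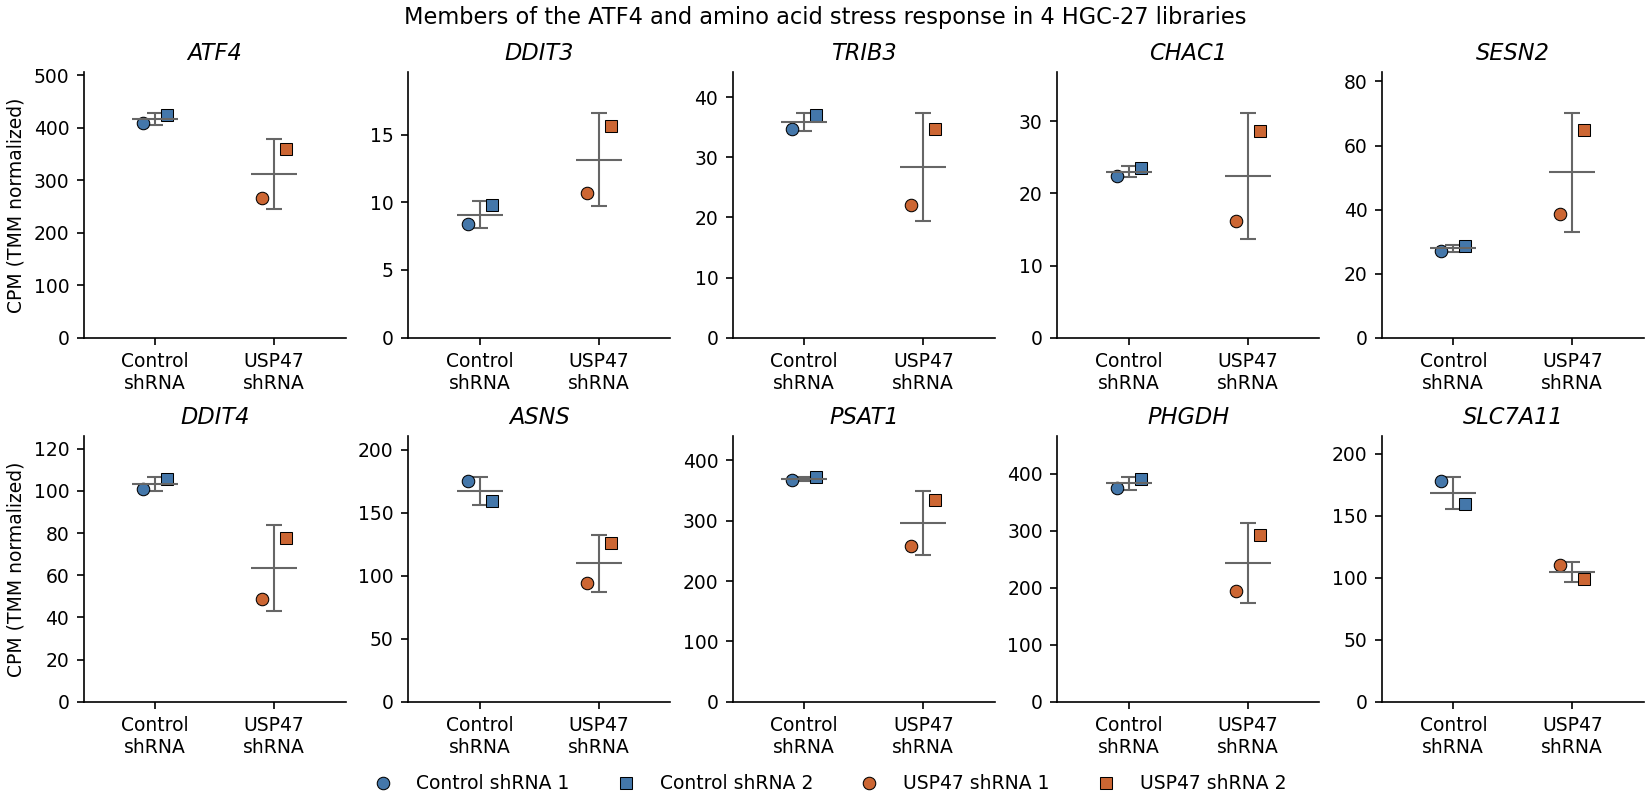
Level of each of the 10 genes in every library, as CPM (counts scaled to library size) after TMM normalization, on linear axes that start at 0. Points are libraries 1 and 2 of each group, and bars give the mean and SD (n = 2 per group). The control points lie close together, while the USP47 shRNA points spread more widely for every gene except SLC7A11.

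ATF4 mRNA (chromosome 22 of GRCh37, 39915700 to 39918688) had 6926 and 8340 counts with Control shRNA and 5516 and 5157 with USP47 shRNA, or 408, 425, 265 and 359 CPM in the same order. Both knockdown libraries lay below both controls, and library 2 was closer to the controls than library 1. The mean went from 417 ± 11.9 to 312 ± 66.5 CPM (SD, n = 2 per group), a log2 fold change of -0.42 with a standard error of 0.16 that was not called (edgeR's quasi-likelihood test, adjusted p = 0.108). Without USP47 shRNA library 2 the log2 fold change was -0.65, and without library 1 it was -0.21. Scaling by library size alone gave -0.50 and a call (edgeR, adjusted p = 0.0335), with the median of all genes at -0.07. Reads of ATF4 can be split with its processed pseudogenes. ATF4P3 was counted 571 and 736 times in the controls and 461 and 399 times with USP47 shRNA. ATF4P4 was counted 247, 313, 214 and 190 times in the same order. ATF4P3 was called lower (log2 fold change -0.515, edgeR adjusted p = 0.0423) and ATF4P4 was not called (-0.385, edgeR adjusted p = 0.142). With their counts added the log2 fold change of ATF4 was still -0.42.

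DDIT3, TRIB3 and CHAC1, which act later in the response, were not called. DDIT3 encodes CHOP, a bZIP factor associated with cell death under lasting stress. It was at 8.37 and 9.79 CPM in the controls and at 10.7 and 15.6 CPM with USP47 shRNA, so each knockdown library exceeded each control. The log2 fold change of 0.52 (standard error 0.20) was not called (edgeR, adjusted p = 0.1). It was 0.78 without USP47 shRNA library 1 and 0.24 without library 2. DDIT3 lies at 57910371 to 57915520 on chromosome 12, and its span overlaps MARS1 and MBD6 on the other strand. Whether counting used the strand is not given in the sources used here, so reads of the overlapping parts cannot be assigned with certainty. MARS1, the larger source of reads, was at 243, 246, 242 and 304 CPM, a log2 fold change of 0.16.

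TRIB3 encodes a pseudokinase that is induced with CHOP and restrains AKT and ATF4. It lies on chromosome 20 from 343479 to 378203. Its levels were 34.8 and 37.0 CPM in the controls and 22.1 and 34.7 CPM in the USP47 shRNA libraries. Library 1 alone was clearly lower, and library 2 lay just under the lower control. Its log2 fold change was -0.35 (standard error 0.19) and not called (edgeR, adjusted p = 0.240). With DESeq2 size factors the groups overlapped. Without USP47 shRNA library 2 the log2 fold change was -0.70, and without library 1 it was -0.049.

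CHAC1 encodes an enzyme that degrades glutathione and is a sensitive ATF4 target (chromosome 15, 41245160 to 41248710). It was at 22.5 and 23.6 CPM in the controls, 16.3 CPM in USP47 shRNA library 1 and 28.6 CPM in library 2. The knockdown libraries lay on opposite sides of the controls, which makes CHAC1 the only one of the 10 with overlapping groups. Its log2 fold change was -0.05 (standard error 0.22, edgeR adjusted p = 0.909). It was -0.50 without library 2 and 0.32 without library 1.

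SESN2 and DDIT4 both act as brakes on mTORC1 and both can be induced through ATF4, and they moved in opposite directions. SESN2, which encodes Sestrin 2, a leucine sensor that inhibits mTORC1 through the GATOR complexes, was at 27.1 and 28.6 CPM in the controls and at 38.6 and 64.8 CPM with USP47 shRNA. Both knockdown libraries were above both controls, library 2 by far the more. The rise was 1.85-fold, a log2 fold change of 0.89 with a standard error of 0.21 (edgeR's quasi-likelihood test, adjusted p = 0.0191). With each library left out in turn, the log2 fold change lay between 0.47 (without USP47 shRNA library 2) and 1.22 (without library 1). SESN2 spans 28586029 to 28609002 on chromosome 1.

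DDIT4 encodes REDD1, which inhibits mTORC1 through the TSC complex in stress and hypoxia (chromosome 10, 74033678 to 74035794). It was at 101 and 106 CPM in the controls and fell to 48.9 and 77.8 CPM with USP47 shRNA. Both knockdown libraries were below both controls, library 1 at 47.3% of their mean. On the log2 scale DDIT4 changed by -0.71 (standard error 0.19, edgeR adjusted p = 0.0313). Without Control shRNA library 2 the call was lost (adjusted p = 0.0568). The log2 fold change was -0.41 without USP47 shRNA library 1 and -1.07 without library 2.

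Of the 3 genes that make amino acids, ASNS and PHGDH fell and PSAT1 was not called. ASNS encodes asparagine synthetase, which makes asparagine from aspartate and glutamine (chromosome 7, 97480989 to 97501854). It was at 175 and 160 CPM in the controls and 94.0 and 126 CPM in the knockdown libraries, both below both controls. The log2 fold change was -0.61 (standard error 0.16, edgeR adjusted p = 0.0273), and the call was lost without Control shRNA library 1 (adjusted p = 0.256) or library 2 (adjusted p = 0.0708). The copies ASNSP1 and ASNSP5, which can share reads with ASNS, were also called lower, with log2 fold changes of -0.72 (edgeR, adjusted p = 0.0453) and -1.12 (edgeR, adjusted p = 0.00974). With all pseudogene counts added, that of ASNS was -0.63 and still called.

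PHGDH encodes the first enzyme of serine synthesis from glycolysis and PSAT1 encodes the second. PHGDH (chromosome 1, 120191034 to 120286841) was at 376 and 391 CPM in the controls and 194 and 293 CPM with USP47 shRNA, with no overlap between groups. The log2 fold change was -0.66 (standard error 0.19, edgeR adjusted p = 0.0375). The call was lost without Control shRNA library 1 (adjusted p = 0.162) or library 2 (adjusted p = 0.138), and the log2 fold change was -0.39 without USP47 shRNA library 1. PSAT1 (chromosome 9, 80912041 to 80945009) was at 367 and 372 CPM in the controls and 259 and 334 CPM with USP47 shRNA. Both knockdown libraries were lower, yet the log2 fold change of -0.32 (standard error 0.15) was not called (edgeR, adjusted p = 0.180). Without USP47 shRNA library 2 it was -0.51, and without library 1 it was -0.15.

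SLC7A11 encodes the light chain of the cystine and glutamate exchanger xCT, which supplies cysteine for glutathione (chromosome 4, 139085251 to 139163503). It was at 178 and 160 CPM in the controls and 110.0 and 98.6 CPM with USP47 shRNA. Here the knockdown libraries lay close together, and both were well below both controls. The log2 fold change was -0.69 (standard error 0.13, edgeR adjusted p = 0.00829), the smallest adjusted p of the 10 genes. Without Control shRNA library 1 the log2 fold change was -0.61 and not called (adjusted p = 0.170). The antisense gene SLC7A11-AS1 overlaps the span and fell alike, by 0.68 on the log2 scale (standard error 0.16, edgeR adjusted p = 0.0196), with 473 and 447 counts in the controls and 359 and 204 with USP47 shRNA. Since use of the strand is not stated, reads of the pair cannot be told apart.

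**Figure D2:**
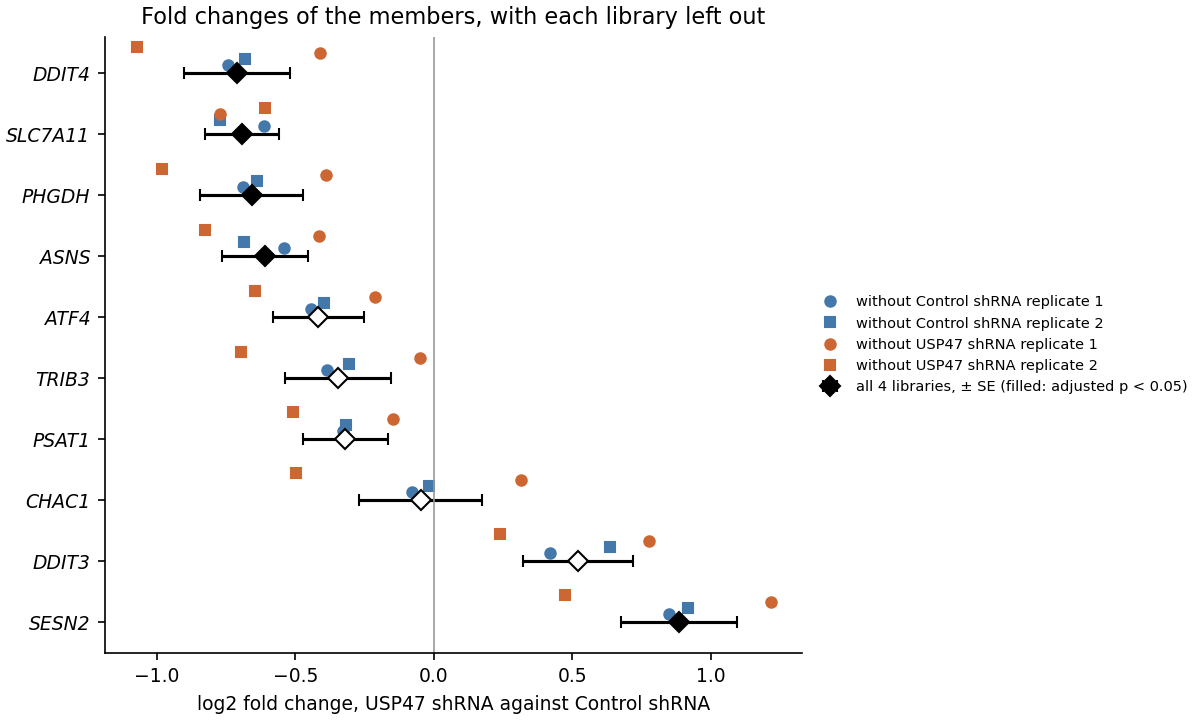
Log2 fold change of each gene, USP47 shRNA against Control shRNA, with the 4 libraries (diamond, bar of 1 SE, filled where edgeR's adjusted p was under 0.05) and with each library left out (circles and squares). Leaving out a USP47 shRNA library moved most genes further than leaving out a control, and CHAC1 changed sign, at 0.32 without USP47 shRNA library 1.

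Levels between genes were compared by the deposited TPM, which divides by gene length. In the control libraries PSAT1 (231 ± 18.7 TPM, SD, n = 2) and ATF4 (227 ± 13.9 TPM) were highest and overlapped each other. They were followed by PHGDH (93.3 ± 5.67), DDIT4 (68.7 ± 3.88), ASNS (51.7 ± 8.05), SLC7A11 (24.0 ± 3.98), TRIB3 (16.6 ± 0.785) and CHAC1 (15.3 ± 0.868), with no overlap between neighbours. SESN2 (11.03 ± 0.579) and DDIT3 (10.5 ± 0.214) were lowest and overlapped. With USP47 shRNA SESN2 was at 18.3 ± 2.95 TPM and DDIT3 at 13.8 ± 0.831 TPM, beside 11.8 ± 1.35 TPM for TRIB3.

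The USP47 shRNA libraries differed from each other over most of these genes. In CPM, 9 of the 10 were higher in library 2 than in library 1 (all but SLC7A11), where 61.1% of the 10270 genes of at least their abundance were. The median log2 ratio of library 2 to library 1 was 0.57 over the 10 genes and 0.08 over those genes. CHAC1 (0.82), SESN2 (0.75), DDIT4 (0.67), TRIB3 (0.65), PHGDH (0.60) and DDIT3 (0.54) exceeded a log2 ratio of 0.5, as did 4.12% of those genes. Between the control libraries no log2 ratio of the 10 genes was larger in size than 0.23. The ratios depended on scaling, which shifts all genes of a library together. In deposited TPM the median log2 ratio was 0.15 over the 10 genes and -0.33 over those of at least their abundance, 8 of the 10 and 8.16% of those genes were higher in library 2, and ATF4 was nearly equal in both libraries (0.02). USP47 moved the other way, with a log2 ratio of -0.74. The part that different hairpins, depth (20140273 and 15649899 counts) or the 7SL share (7.54% and 9.72%) have in this spread was not tested.

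**Figure D3:**
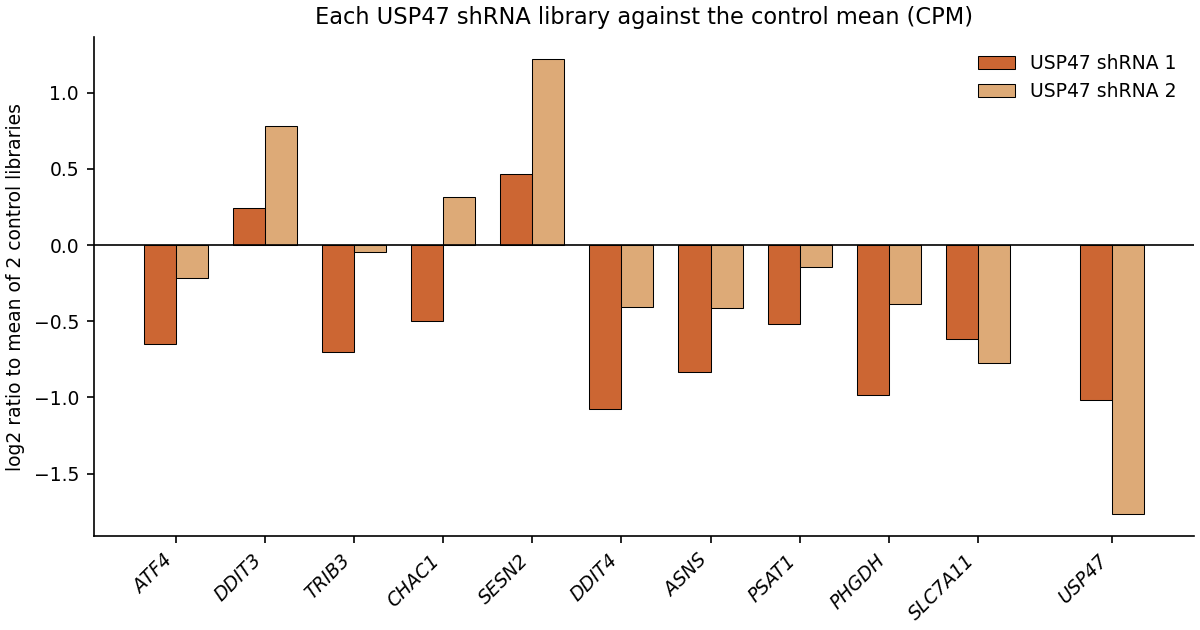
Difference of each USP47 shRNA library from the mean of the control libraries, as log2 ratio of CPM (vertical axis), with a darker bar for library 1 and a lighter bar for library 2 of each gene. The bar of library 2 ends above that of library 1 for 9 of the 10 genes, and below it for SLC7A11 and for USP47, shown at the right for comparison.

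ATF4 and related bZIP factors bind a composite element whose core was searched for here as TGATGNAA, and in its stricter form TGATGCAA, which is contained in the former. Both strands of windows from 250 bases before to 50 bases after RefSeq start sites (GRCh38.p14) were searched. TGATGNAA occurred in 3.62% of 35116 windows and in 4.46% of 27305 genes, and TGATGCAA in 0.866% of windows and 1.08% of genes. Windows were found for 9 of the 10 genes, without SLC7A11. ASNS and CHAC1 held TGATGNAA, and CHAC1 held TGATGCAA. These sites are shown with those of 4 other genes of the response or of mTORC1 control, to compare the bases around the core. All are written 5′ to 3′ along the strand that reads TGATG, with the 8 searched letters in capitals:
ASNS: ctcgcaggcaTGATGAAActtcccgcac
CHAC1: ctggcaggagTGATGCAAcggcagggga
CEBPG: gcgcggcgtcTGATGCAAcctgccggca
ATF3: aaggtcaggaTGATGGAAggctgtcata
AARS1: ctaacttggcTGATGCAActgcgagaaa
TSC2: ccccgtcacgTGATGCAAggatcgccgg

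Each of these sequences matched GRCh37 once on its chromosome. The ASNS site (chr7:97501771-97501798, read on the minus strand) has its first capital at position -68 from the RefSeq start and lies in an annotated ASNS exon, in the UTR. That of CHAC1 (chr15:41245450-41245477, read on the minus strand, opposite to the gene) lies in an annotated CHAC1 exon, in the UTR. The CEBPG site (chr19:33864967-33864994, plus strand) lies in the CEBPG gene outside its exons, and the ATF3 site (chr1:212738548-212738575, plus strand) in no annotated feature. The AARS1 site (chr16:70323579-70323606, plus strand) lies in exons of AARS1 and, on the other strand, DDX19B. The TSC2 site (chr16:2097866-2097893, plus strand) lies in an exon of NTHL1, which is on the minus strand. Over the 10 genes and the other lists described below, 14 tested genes held TGATGCAA, of which CEBPG was called lower, TSC2 was called higher and 12 were not called, CHAC1 and AARS1 (log2 fold change -0.45, edgeR adjusted p = 0.0714) among them. That is near the share of all genes called (16.1%). Of the 4 genes called lower among the 10, ASNS held TGATGNAA, the windows of DDIT4 and PHGDH held neither form, and SLC7A11 had no window.

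Among the other genes of the response, 105 genes in 9 lists were tested and 16 were called, 7 higher and 9 lower. This share of 15.2% is near the 16.1% of all genes tested, so the calls in the lists are described gene by gene and are not a result about the response. The direction of each of the 16 was the same without any 1 library. Their calls were kept without either USP47 shRNA library. Those fits called more genes of the lists and of all genes tested, so a kept call there says little. Without either control library most of the 16 lost their calls, in fits that called fewer genes in all. PPP1R15A, ALDH1L2, ASS1, TRIB2 and RRAGA were called in all 4 such fits. HMOX1 lost its call without Control shRNA library 1 (edgeR, adjusted p = 0.0664), as did SESN3 (adjusted p = 0.0535), and the other 9 lost theirs without either control, with adjusted p between 0.054 and 0.492.

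Of 12 genes for eIF2 alpha (EIF2S1), its kinases, its phosphatase subunits and the exchange factor eIF2B, 2 were called, both higher. Over all genes tested 6.52% were called higher and 16.1% in either direction. PPP1R15A encodes GADD34, a regulatory subunit of the phosphatase that removes the phosphate from eIF2. It went from 17.5 and 18.7 CPM to 35.9 and 47.7 CPM, which is a log2 rise of 1.21 (edgeR, standard error 0.16, adjusted p = 0.00168). EIF2B4, a subunit of the exchange factor that phosphorylated eIF2 blocks, rose by 0.68 on the log2 scale (edgeR, adjusted p = 0.0125). The PERK gene EIF2AK3 (log2 fold change 0.23, edgeR adjusted p = 0.279) and the GCN2 gene EIF2AK4 (-0.23, adjusted p = 0.233) were not called. The median of the list was 0.08.

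Of 6 bZIP partners and co-regulators of ATF4 that were tested out of 8, 2 were called lower and none higher. Over all genes tested 9.56% were called lower and 6.52% higher. The median log2 fold change of the list was -0.44, and 2 of the 6 lay above 0. NUPR1, a stress-induced chromatin protein, went from 66.7 and 69.0 CPM to 37.0 and 52.3 CPM (log2 fold change -0.61, edgeR adjusted p = 0.0318). CEBPG, a dimer partner of ATF4, went from 100.2 and 90.2 CPM to 66.6 and 73.2 CPM (log2 fold change -0.45, edgeR adjusted p = 0.0415), and was not called by the DESeq2 Wald test (adjusted p = 0.0516). ATF3, a stress-induced factor downstream of ATF4, was at 16.6, 16.7, 20.4 and 29.3 CPM and was not called (log2 fold change 0.57, edgeR adjusted p = 0.0526). With DESeq2 size factors in edgeR it was called, so that this list then had 1 gene called higher and 2 lower.

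Of 9 amino acid transporters tested out of 10, edgeR's quasi-likelihood test called 0, while 2 had an unadjusted p under 0.05. DESeq2 called 1, SLC7A5, and scaling by library size alone gave 2 calls, both lower. SLC7A5, the large neutral amino acid transporter LAT1, was at 529 and 573 CPM in the controls and 336 and 449 CPM with USP47 shRNA (log2 fold change -0.49, edgeR adjusted p = 0.0694). Of the 9 transporters 8 had a log2 fold change below 0, and the median was -0.13.

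Of 12 tested genes of serine, glycine, one-carbon, proline and asparagine metabolism (out of 13), 3 were called lower and none higher, where 9.56% of all genes were called lower. The median was -0.07, and 4 of the 12 lay above 0. ASS1, which joins citrulline and aspartate on the way to arginine, went from 399 and 401 CPM to 132 and 210 CPM (log2 fold change -1.23, standard error 0.20, edgeR adjusted p = 0.00381). ALDH1L2, a mitochondrial enzyme of the folate cycle, went from 109 and 89.9 CPM to 49.4 and 41.7 CPM (log2 fold change -1.13, standard error 0.15, edgeR adjusted p = 0.00154). GPT2, which makes alanine in mitochondria, fell by 0.64 on the log2 scale (edgeR, adjusted p = 0.0302).

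The 20 cytosolic aminoacyl-tRNA synthetases, which charge tRNAs and include known ATF4 targets, were centred near 0 with a median log2 fold change of -0.01. KARS1 rose by 0.52 on the log2 scale (edgeR, adjusted p = 0.0251) and HARS1 fell by 0.46 (adjusted p = 0.0308), whereas library size alone gave 1 call higher and 3 lower. TGATGNAA was held by 7 of the 16 synthetase genes with a window and by 5 of 9 transporters, the largest shares of any list.

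Genes of the endoplasmic reticulum, which the ATF6 and IRE1 arms of the unfolded protein response induce, had a median log2 fold change of 0.03 across its 16 genes, with 1 called lower. This was DNAJC3, an inhibitor of PERK and co-chaperone, which went from 42.5 and 40.3 CPM to 29.3 and 26.9 CPM (log2 fold change -0.56, edgeR adjusted p = 0.018). HSPA5, the chaperone BiP, was at 401, 405, 391 and 386 CPM (log2 fold change -0.05, edgeR adjusted p = 0.819). Of 10 glutathione genes and NRF2 targets, HMOX1, which degrades heme, was the one called, and the median was -0.01. It went from 8.37 and 10.1 CPM to 17.2 and 18.5 CPM (log2 fold change 0.94, edgeR adjusted p = 0.00466).

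Paralogs did not all follow their relatives. SESN3, a second sestrin, rose as SESN2 did, from 105 and 102 CPM to 189 and 177 CPM (log2 fold change 0.82, standard error 0.13, edgeR adjusted p = 0.00318), while SESN1 was at 4.94 to 5.72 CPM in all 4 libraries (log2 fold change -0.01). TRIB2 fell from 25.1 and 26.2 CPM to 13.6 and 15.1 CPM (log2 fold change -0.84, edgeR adjusted p = 0.00447), and TRIB1 was not called (log2 fold change 0.44, adjusted p = 0.0769). Over the 9 paralogs tested out of 10 the median was -0.36. This list shares genes with the bZIP, transporter and glutathione lists, so its median is not independent of theirs.

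Of 14 tested genes of the machinery through which amino acids reach mTORC1 (out of 16), 2 rose and 1 fell, with a median of 0.10. These 3 calls are also near the share over all genes (16.1%). RRAGA, a small GTPase that recruits mTORC1 to the lysosome, went from 46.2 and 43.5 CPM to 15.5 and 19.3 CPM (log2 fold change -1.37, standard error 0.15, edgeR adjusted p = 0.000679). TSC2, the mTORC1 inhibitor through which DDIT4 acts, rose by 0.58 on the log2 scale (edgeR, adjusted p = 0.014), as did SEC13 (0.57, adjusted p = 0.0144), a subunit of the GATOR complex that SESN2 binds and of the nuclear pore.

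**Figure D4:**
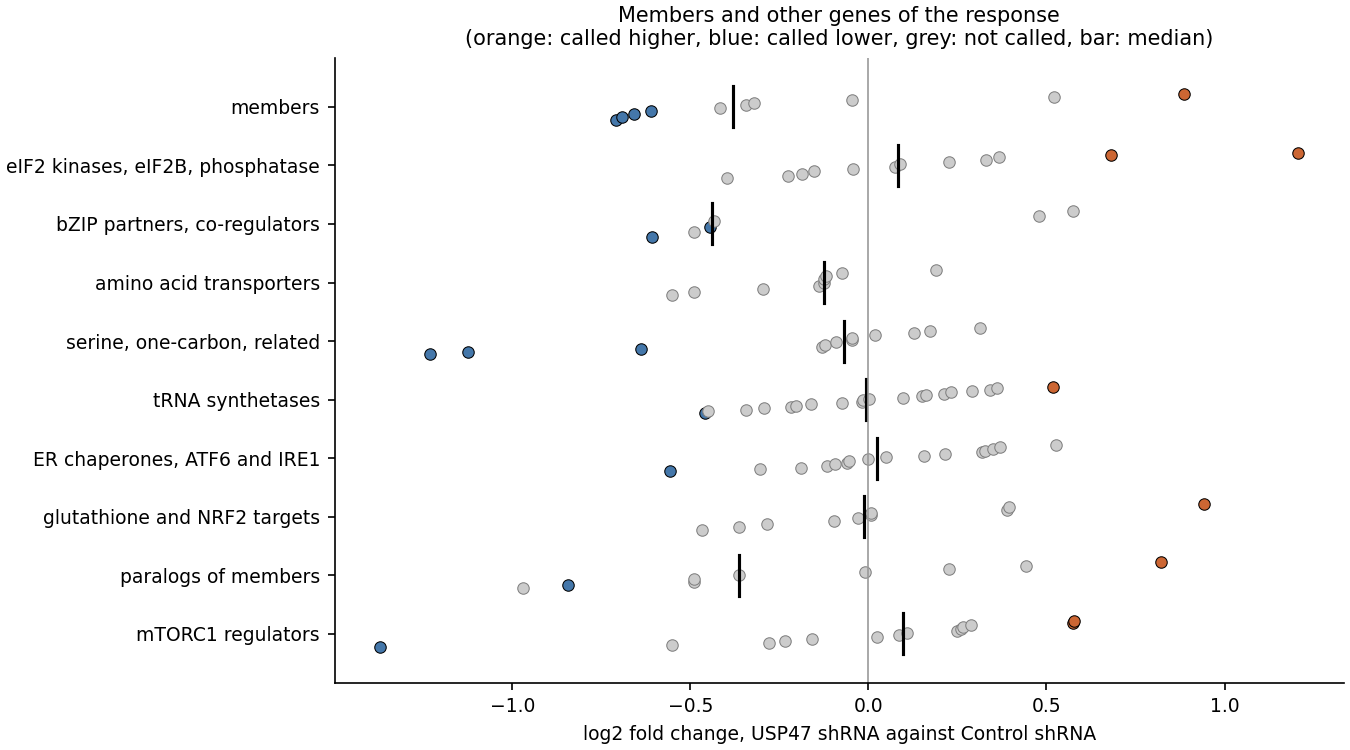
Log2 fold changes (USP47 shRNA against Control shRNA) of the 10 genes and of the 9 lists, with a point for each tested gene (orange where called higher, blue where called lower and grey where not called; "members" are the 10 genes) and a short bar at each median. The medians of the 10 genes (-0.38), the bZIP partners (-0.44) and the paralogs (-0.36) lie furthest below 0, and that of the endoplasmic reticulum list is near 0. The paralogs share genes with the bZIP, transporter and glutathione lists.

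The spread between the knockdown libraries was also seen in related lists. The median log2 ratio of library 2 to library 1 was 0.42 over the 9 transporters, 0.36 over the 6 bZIP partners and 0.32 over the 12 genes of serine and related metabolism. It was 0.16 over the synthetases, 0.10 over the endoplasmic reticulum list and 0.07 over the eIF2 list, which contain no gene with a log2 ratio above 0.5.

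By likeness of log2 CPM centred over the 4 libraries, PSAT1 was nearest to ATF4 among the 10 genes (Euclidean distance 0.116), followed by TRIB3 (0.163) and ASNS (0.234), and SESN2 was farthest (1.29). Among all 15782 genes searched, the nearest outside the 10 were ARHGEF40 (0.0371), HDDC3 (0.0517) and PDGFA (0.0519). None of these 3 was called (log2 fold changes -0.45, -0.44 and -0.41). The median distance over the genes searched was 0.649, and 4 libraries leave room for many near patterns.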

How the data were processed

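RNA-Seq of HGC-27 cells comprised 2 Control shRNA and 2 USP47 shRNA libraries, grouped by the labels. Per the methods and the submitters' processing notes, the authors trimmed low-quality bases, used STAR 2.7.5c for alignment (hg19), dropped duplicates with SAMtools 1.9 and named featureCounts and DESeq2 1.26.0. Removing duplicates without molecular identifiers lowers high counts most. The deposited counts are unnormalized reads per gene. The deposited TPM values, derived from them by the authors per gene length, served only to compare levels, and the deposited FPKM values only to recover those lengths. The methods speak of triplicates and of another library kit than the stranded kit in the labels.

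Counts were fitted in edgeR 4.0.16 (R 4.3.3; TMM, filterByExpr, robust quasi-likelihood, test of both directions). Standard errors were taken as |log2 fold change| over the root of F. Both the genes described and the lists were chosen with earlier results of these data known. All 10 genes are named, at most 3 called genes per list and direction, and the 3 genes nearest to ATF4 with mean log2 CPM of at least 1. Genes named outside this rule (SLC7A5, ATF3, AARS1, HSPA5, SESN1, TRIB1, MARS1, the marker genes, the eIF2 kinases and the pseudogenes) and the 4 comparison sites were chosen after their values were seen. Gene positions came from GENCODE release 44 lifted to GRCh37, and start-site windows from RefSeq (GRCh38.p14). Alternatives covered test, scaling, filter, minimum fold change, TPM pseudocounts (1 and 0.1), the replicate block and each library left out. The fit was tested on simulated data with 200 changed genes and the same spread for every gene in both groups. It recovered 65% of genes changed by a log2 of 1 and 92% of those changed by 2. Of its calls there, 2.48% were genes that had not been changed. Changes of the size seen in the 10 genes can therefore be missed, though no log2 change below 1 was simulated. The real USP47 shRNA libraries differed more from each other than the controls did, so these shares need not hold in the data.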

Additional observations from a re-analysis of the deposited data

How the results depend on the processing

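With 2 libraries per group, calls rest largely on the spread shared among genes. Without 1 library, called genes ranged from 1194 to 7381 in all, from 2 to 9 among the 10 and from 5 to 50 in the lists. Log2 fold changes ranged over -0.65 to -0.21 (ATF4), 0.24 to 0.78 (DDIT3), -0.70 to -0.049 (TRIB3), -0.83 to -0.41 (ASNS), -0.50 to 0.32 (CHAC1), 0.47 to 1.22 (SESN2), -0.51 to -0.15 (PSAT1), -0.98 to -0.39 (PHGDH), -0.77 to -0.61 (SLC7A11) and -1.07 to -0.41 (DDIT4). CHAC1 reversed, to 0.32, without USP47 shRNA replicate 1. The labels do not say that a replicate number marks a shared batch (replicate 1 deviations of both groups correlated at 0.213 across genes). With the replicate block 7422 genes were called, including all 3527 called without it. Among them were 9 of the 10 (log2 fold changes of -0.43 for ATF4, 0.52 for DDIT3, -0.37 for TRIB3 and -0.33 for PSAT1) and 46 list genes. With so few libraries the block leaves little from which to estimate spread. Its calls rest on the spread shared among genes and lend no weight to the main calls. A minimum log2 fold change of 1 left 1216 genes, 0 of the 10 and 4 list genes. Library size alone gave -0.50 and a call for ATF4. In TPM with a pseudocount of 0.1, the log2 fold changes of the 10 were all lower than in the main fit. TPM is not scaled by TMM, and scaling shifts all genes of a library together. The median over all genes in TPM is not given here, so a shift common to all genes is not set apart. SLC7A11 was at -0.81, ATF4 at -0.556 and SESN2 at 0.715. The DESeq2 Wald test called 2455 genes, and 5 of the 10. Causes were not tested.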
